A study of Homo sapiens with 3 samples.

Results

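The genes described here are 31 genes of cholesterol and fatty acid synthesis, of 36601 genes counted in each library. They were chosen by name from the known pathway, with earlier results of these data known, and comprise 7 enzymes of the mevalonate steps, 11 of the squalene and sterol steps, 5 regulators of sterol regulatory element-binding proteins (SREBPs), the sterol carrier STARD4 and 7 fatty acid enzymes. All 31 were found in the deposited counts, and all 31 had at least 10 CPM (UMIs of a gene per 1000000 UMIs of the library) in the library treated with DMSO. The counts came from single-cell RNA sequencing of OVCAR3, an established human line of high-grade serous ovarian cancer, grown in medium with fetal bovine serum. Cultures received the solvent DMSO, 50 μM RAC1i (NSC23766, an inhibitor of activation of the small GTPase RAC1), or RAC1i with 5 μM EZH2i (GSK126, an inhibitor of the histone methyltransferase EZH2), called Combo, each for 48 h. Both inhibitors were dissolved in DMSO, so all 3 groups were exposed to it. Each group was 1 library of 1 cell line, without replicates. EZH2i alone was given to a further culture that was not analysed here.

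The filters kept 7531 cells of DMSO, 10215 of RAC1i and 8239 of Combo, with 199063947 to 234969742 UMIs per library (a UMI marks a captured mRNA molecule). The median kept cell held 26750, 20989 and 24953 UMIs, of which 5.60%, 1.66% and 1.58% were mitochondrial. Between 15 and 23 kept cell barcodes were shared by any pair of libraries. All 8 OVCAR3 identity genes were over 10 CPM in DMSO and RAC1i and 7 of 8 in Combo, where WT1 was at 7.87 CPM. Their summed level was 3611, 1929 and 2128 CPM, and PAX8 was at 355, 54.3 and 47.8 CPM. No gene of the fibroblast, blood cell or endothelial lists reached 10 CPM in any library, with summed levels of 5.67 to 5.78, 0.909 to 7.65 and 1.22 to 1.88 CPM. CD14 made up nearly all of the blood cell sum, at 0.894, 7.62 and 7.50 CPM, while PTPRC, CD3E and HBB had at most 0.0213 CPM. The part of these markers in the results was not tested. With 1 library per group no test between treatments was possible, and the 95% intervals given below (exact Poisson for a level, exact conditional for a ratio, Clopper-Pearson for a share of cells) cover counting error only.

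Cholesterol is built from acetyl-CoA through mevalonate, isoprenoid diphosphates, squalene and lanosterol, while fatty acids are built from acetyl-CoA through malonyl-CoA and then elongated and desaturated. Both pathways are controlled by SREBPs, membrane-bound transcription factors of the endoplasmic reticulum. When sterols are scarce, SCAP escorts SREBPs to the Golgi, where proteases release their active part, and when sterols are plentiful INSIG proteins hold SCAP back. SREBP-2, encoded by SREBF2, acts mainly on sterol genes and SREBP-1, encoded by SREBF1, mainly on fatty acid genes, with NF-Y and SP1 as partners at many of their promoters.

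RefSeq promoters (GRCh38.p14, 250 bases before to 50 after a start) were matched for 27 of the 31 genes. ACAT2, FDFT1, SQLE and FASN were not among them. The NF-Y motif CCAAT was present on either strand of at least 1 promoter of 20 of the 27 genes (74.1%), against 39.7% of all 27305 genes with such a promoter. The SP1 motif GGGCGG was present for 26 of the 27 (96.3%), against 48.3% of all genes. A strict sterol regulatory element, searched as TCACNCCAC, was found for 1 of the 27, SREBF2, and for 1.39% of all genes, and the E-box CACGTG for 4 of the 27 (14.8%), against 8.77%. The letters of these 4 motifs do not contain each other, genes with several promoters had more bases searched, and a match is a description of the sequence only. The 27305 genes were not limited to genes expressed in these cells, whereas all 31 genes were. The part of this difference in the shares was not tested. The promoters below, 300 bases each from 5′ to 3′ on the strand of the gene, belong to the genes on which the results turn: the only match to the sterol element, the 3 genes with the lowest ratios in RAC1i, the desaturase SCD, and SC5D, whose level differed least. HMGCS1 and SC5D each have 2 promoters in the table; that of HMGCS1 not printed, chr5:43313132-43313431, holds no CCAAT on either strand. Capitals mark CCAAT, its reverse complement and the sterol element, which in SREBF2 begins 133 bases before the start.
SREBF2, chr22:41832855-41833154, plus strand: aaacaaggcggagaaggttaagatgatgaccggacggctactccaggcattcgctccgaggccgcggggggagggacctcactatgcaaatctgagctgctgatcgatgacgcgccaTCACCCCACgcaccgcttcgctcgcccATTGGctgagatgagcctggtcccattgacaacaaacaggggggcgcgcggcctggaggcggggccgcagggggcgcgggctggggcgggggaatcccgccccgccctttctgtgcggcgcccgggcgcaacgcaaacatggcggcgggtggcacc
HMGCS1, chr5:43313363-43313662, minus strand: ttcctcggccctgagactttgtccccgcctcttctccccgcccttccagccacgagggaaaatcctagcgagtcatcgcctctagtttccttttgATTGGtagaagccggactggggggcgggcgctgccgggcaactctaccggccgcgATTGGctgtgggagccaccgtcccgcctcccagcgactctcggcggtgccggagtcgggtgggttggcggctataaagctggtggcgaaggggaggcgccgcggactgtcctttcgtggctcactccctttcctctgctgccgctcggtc
INSIG1, chr7:155297628-155297927, plus strand: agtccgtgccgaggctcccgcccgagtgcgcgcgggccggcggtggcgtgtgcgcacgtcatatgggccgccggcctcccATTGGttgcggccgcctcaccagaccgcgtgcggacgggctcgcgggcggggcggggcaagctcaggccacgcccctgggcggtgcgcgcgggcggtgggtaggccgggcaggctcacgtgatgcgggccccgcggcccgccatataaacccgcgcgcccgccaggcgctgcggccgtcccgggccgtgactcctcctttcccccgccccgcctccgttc
STARD4, chr5:111512486-111512785, minus strand: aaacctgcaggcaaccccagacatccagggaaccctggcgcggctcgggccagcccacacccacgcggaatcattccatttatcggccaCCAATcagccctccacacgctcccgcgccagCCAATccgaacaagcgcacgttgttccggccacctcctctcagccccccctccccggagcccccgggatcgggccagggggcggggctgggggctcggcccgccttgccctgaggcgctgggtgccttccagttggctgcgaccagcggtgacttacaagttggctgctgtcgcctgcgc
SCD, chr10:100346983-100347282, plus strand: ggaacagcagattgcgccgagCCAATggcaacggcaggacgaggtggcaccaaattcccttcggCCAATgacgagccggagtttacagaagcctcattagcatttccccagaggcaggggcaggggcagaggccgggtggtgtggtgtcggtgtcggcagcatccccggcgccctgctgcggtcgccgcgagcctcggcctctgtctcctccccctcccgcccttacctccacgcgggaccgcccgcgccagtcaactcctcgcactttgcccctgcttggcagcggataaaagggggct
SC5D, chr11:121292521-121292820, plus strand: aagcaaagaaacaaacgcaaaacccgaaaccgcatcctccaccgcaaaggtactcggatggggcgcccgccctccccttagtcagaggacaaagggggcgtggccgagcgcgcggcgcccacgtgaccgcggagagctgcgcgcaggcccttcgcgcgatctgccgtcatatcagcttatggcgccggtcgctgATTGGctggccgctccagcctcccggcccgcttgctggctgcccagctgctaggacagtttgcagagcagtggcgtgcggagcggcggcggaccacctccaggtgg

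Over all kept cells, every one of the 31 genes had a lower level in RAC1i than in DMSO. The ratio of CPM was past 1.5-fold lower for 29 of 31 and past 1.5-fold higher for 0 of 31, whereas among the 8778 genes that reached 10 CPM in either library 36.9% were past 1.5-fold lower and 22.7% past 1.5-fold higher. In Combo all 31 were again below DMSO, 28 of them past 1.5-fold and 0 past 1.5-fold higher, where 35.4% of 8745 genes were past 1.5-fold lower and 21.3% higher. The median log2 ratio over the 31 genes was -1.92 in RAC1i and -1.67 in Combo, and that of all genes was -0.20 and -0.18. Against the median of all genes, 30 of the 31 were lower in each treated library, SC5D being the exception in both. In RAC1i 27 of the 31 were over 2-fold below DMSO, against 24.6% of all genes, and 15 over 4-fold, against 6.49%. In Combo 25 were over 2-fold below DMSO, against 22.8% of all genes, and 12 over 4-fold, against 5.37%. All 31 genes had at least 10 CPM in DMSO, and 8 of them (MVK, MVD, NSDHL, HSD17B7, SREBF1, INSIG1, STARD4 and ACACA) had it in DMSO only, so that these passed the minimum through the library where they were high. Of the 21 genes with at least 10 CPM in RAC1i, 20 were past 1.5-fold lower, 18 past 2-fold and 9 past 4-fold, against 25.1%, 13.5% and 1.46% of the 7240 genes with that level in RAC1i. Of the 23 genes with at least 10 CPM in Combo the counts were 21, 18 and 7, against 24.3%, 12.3% and 1.07% of 7296 genes. The comparisons of RAC1i and of Combo share the DMSO library.

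**Figure D1:**
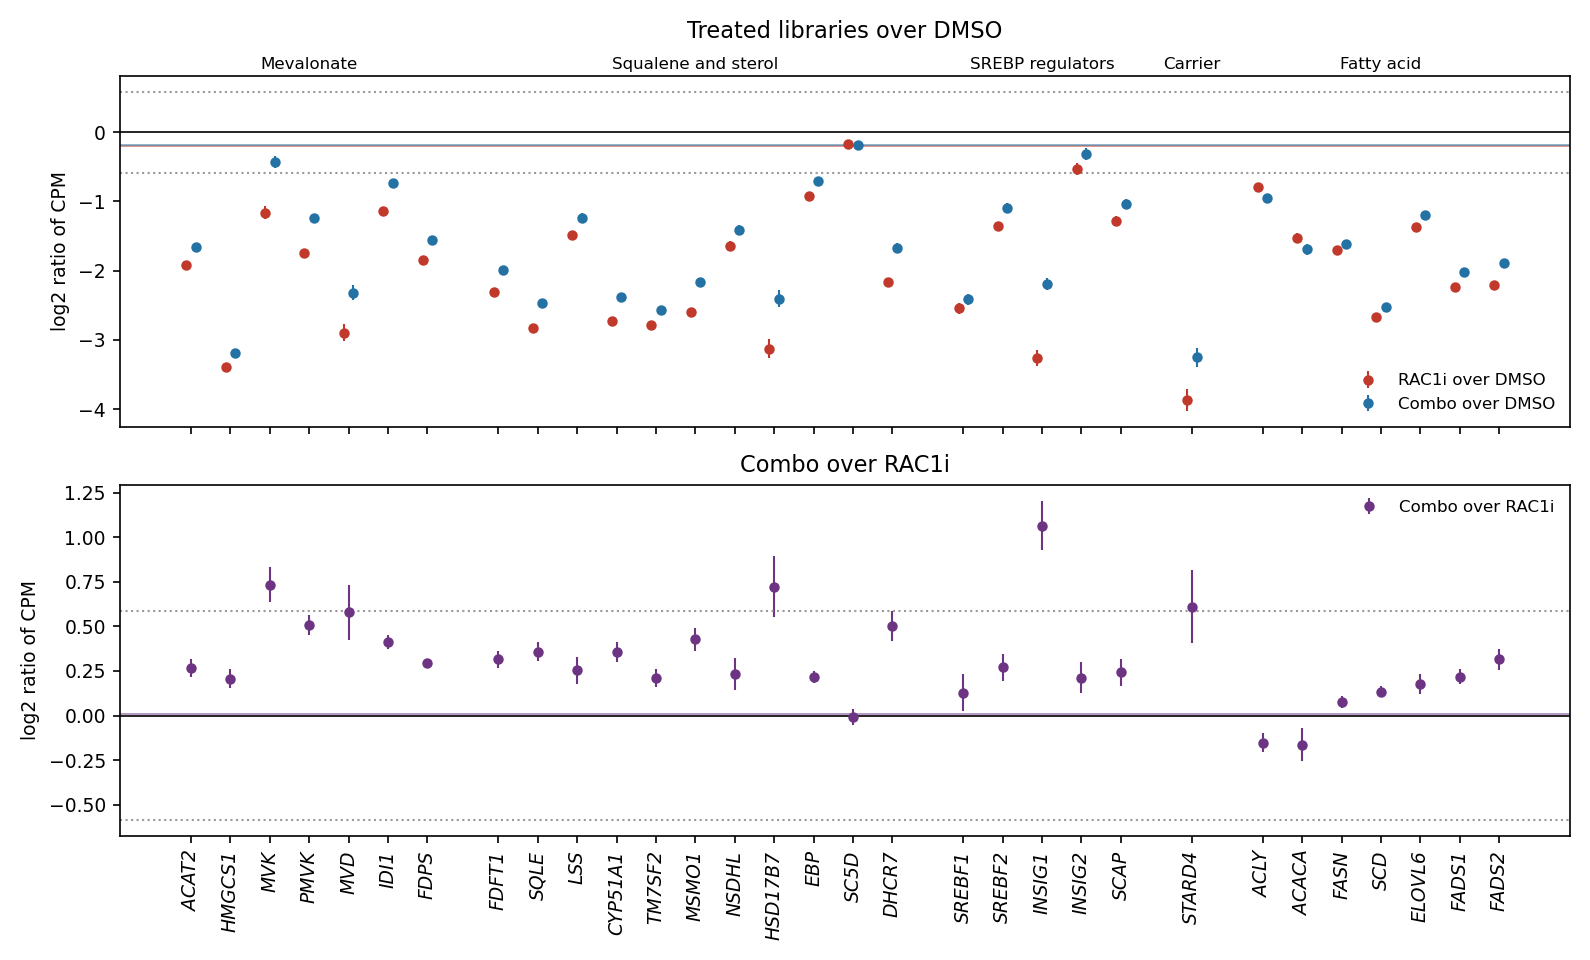
Log2 ratios of CPM for the 31 genes, in pathway order; upper panel, RAC1i over DMSO (red) and Combo over DMSO (blue); lower panel, Combo over RAC1i (purple). Bars are 95% counting intervals, dotted lines mark 1.5-fold, and coloured lines mark the medians of all genes, -0.20, -0.18 and 0.01; all points of the upper panel lie below 0, with SC5D nearest to it, and most points of the lower panel lie above 0.

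The mevalonate steps were lower at every enzyme. Cytosolic HMGCS1, which joins acetyl-CoA and acetoacetyl-CoA into the precursor of mevalonate and lies at chr5:43287470-43313512, had 240 CPM in DMSO, 22.9 in RAC1i and 26.5 in Combo. It was the lowest of the enzymes relative to DMSO, 10.5-fold lower in RAC1i (ratio 0.0954, interval 0.0928 to 0.0982) and 9.08-fold lower in Combo (ratio 0.110, interval 0.107 to 0.113). ACAT2, the cytosolic thiolase one step earlier, was at 95.1, 25.1 and 30.1 CPM, ratios of 0.263 and 0.317 to DMSO. Of the kinases, PMVK was at 62.5, 18.6 and 26.5 CPM. MVK, the first kinase, was at 12.8 CPM in DMSO, 5.73 in RAC1i and 9.54 in Combo. In Combo its ratio of 0.745 (interval 0.702 to 0.790) was the only one of the mevalonate steps within 1.5-fold of DMSO. MVD, the decarboxylase that makes isopentenyl diphosphate, was at 19.0, 2.56 and 3.83 CPM, a 7.43-fold lower level in RAC1i. IDI1, the isomerase of isopentenyl diphosphate, was at 81.1, 36.8 and 48.9 CPM, and its ratio in RAC1i, 0.453 (interval 0.442 to 0.465), did not differ from that of MVK, 0.448 (interval 0.419 to 0.478), beyond counting error. FDPS, which makes farnesyl diphosphate, was at 409, 114 and 139 CPM with ratios of 0.278 and 0.340.

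Over all kept cells, 10 of the 11 squalene and sterol enzymes were past 1.5-fold lower in each treated library. The shares of all genes were 36.9% in RAC1i and 35.4% in Combo. Squalene synthase FDFT1, the first enzyme committed to sterols, was at 145 CPM in DMSO, 29.3 in RAC1i and 36.4 in Combo. Squalene epoxidase SQLE was at 166, 23.3 and 29.9 CPM, 7.09-fold lower in RAC1i and 5.53-fold lower in Combo. Lanosterol synthase LSS, which closes the sterol rings, was at 32.8, 11.7 and 13.9 CPM. Thus, over all kept cells, the enzymes that make lanosterol were all below DMSO, SQLE by the largest factor and LSS by the smallest of the 3.

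Conversion of lanosterol to cholesterol showed a wider range. CYP51A1, the lanosterol demethylase, had 132, 19.9 and 25.5 CPM in DMSO, RAC1i and Combo. TM7SF2, a sterol reductase, had 181, 26.4 and 30.6 CPM, the lowest ratio of the squalene and sterol enzymes in Combo over all kept cells (0.169). Among the enzymes that remove the methyl groups at carbon 4, MSMO1 was at 85.1, 14.1 and 19.0 CPM, NSDHL at 25.9, 8.31 and 9.76 CPM, and HSD17B7 at 17.8, 2.04 and 3.37 CPM. HSD17B7 had the lowest ratio of the squalene and sterol enzymes in RAC1i over all kept cells (0.115, interval 0.104 to 0.126). DHCR7, a last reductase on the way to cholesterol, was at 39.0, 8.67 and 12.3 CPM.

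The isomerase EBP and the desaturase SC5D, which act one after the other, differed least of the squalene and sterol enzymes over all kept cells. EBP was at 103 CPM in DMSO, 54.4 in RAC1i and 63.2 in Combo, with ratios of 0.527 and 0.612. SC5D (chr11:121292681-121313410) was at 38.5, 34.2 and 34.0 CPM, with ratios of 0.889 (interval 0.861 to 0.917) and 0.884 (interval 0.856 to 0.913). It alone of the squalene and sterol enzymes was within 1.5-fold of DMSO in either library, and its log2 ratio lay 0.03 above the median of all genes in RAC1i. This was so over all kept cells; among cells with under 2% mitochondrial UMIs its ratio was 1.91 in RAC1i (interval 1.69 to 2.17) and 1.94 in Combo (interval 1.71 to 2.20), past 1.5-fold higher. In cells thinned to 5000 UMIs, 16.2% of DMSO, 15.0% of RAC1i and 14.8% of Combo cells had a UMI of SC5D.

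**Figure D2:**
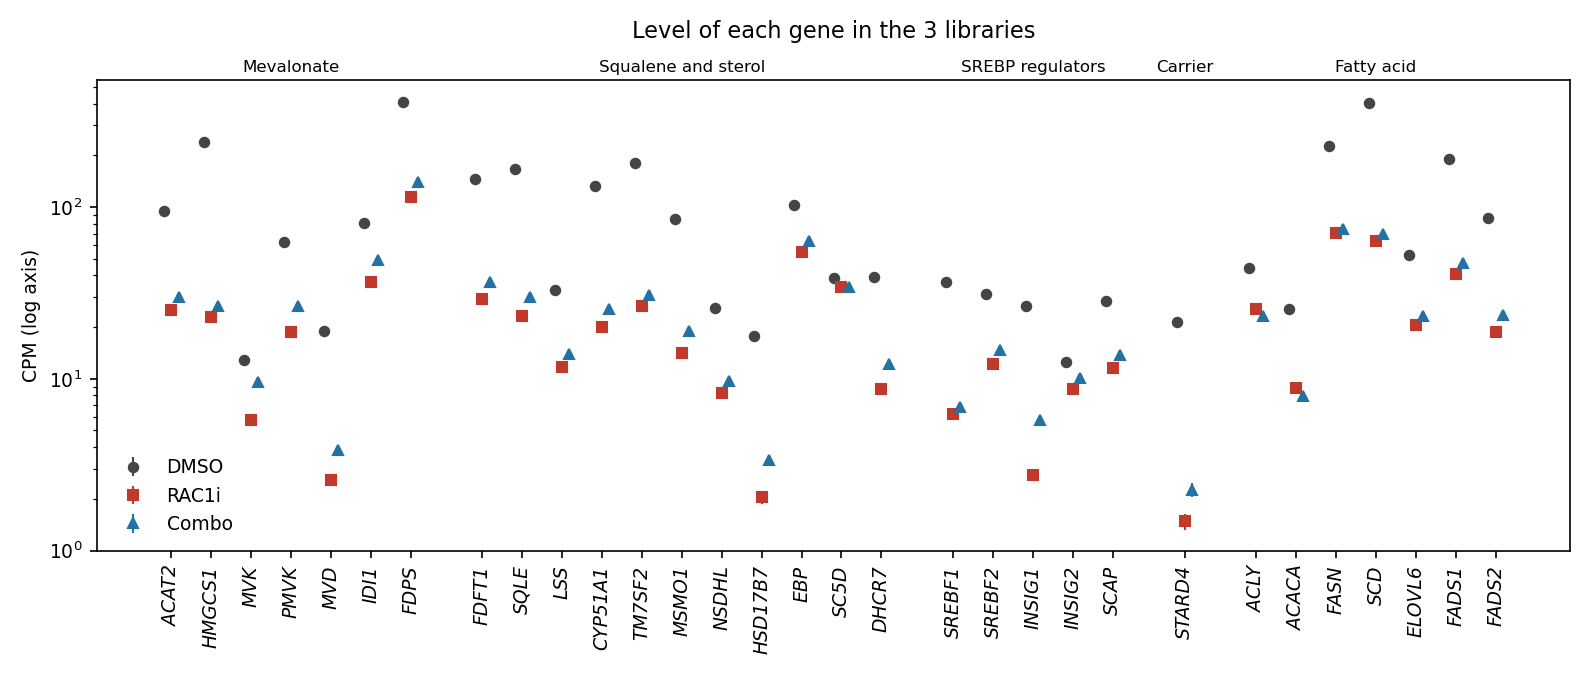
Level of each of the 31 genes in DMSO (circles), RAC1i (squares) and Combo (triangles), in CPM on a log axis and grouped by pathway step; bars are 95% counting intervals, mostly smaller than the symbols. Points compare libraries within a gene, not genes with each other; DMSO is the highest point of every gene, and the points of SC5D lie closest together, at 34.0 to 38.5 CPM.

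Over all kept cells, the 5 genes of the SREBP machinery were lower in both treated libraries, by different factors. SREBF1 was at 36.6 CPM in DMSO, 6.27 in RAC1i and 6.86 in Combo, ratios of 0.172 and 0.188. SREBF2 (chr22:41833105-41907306) was at 31.4, 12.2 and 14.7 CPM, ratios of 0.389 and 0.469. The intervals of the ratios did not overlap between these transcription factor genes (0.162 to 0.181 against 0.372 to 0.407 in RAC1i). SCAP, the escort protein, was at 28.2, 11.6 and 13.8 CPM, close to SREBF2 in ratio, 0.412 and 0.488. The direction did not hold in every stratum of cells. Among cells with under 2% mitochondrial UMIs, described further on, SCAP had ratios of 1.09 in RAC1i (interval 0.925 to 1.29) and 1.34 in Combo (interval 1.14 to 1.59), and in Combo SREBF2 had a ratio of 1.00 (interval 0.871 to 1.16) and INSIG2 one of 1.17 (interval 0.974 to 1.41).

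The INSIG genes, whose proteins retain SCAP in the endoplasmic reticulum, differed from each other. INSIG1, itself a known SREBP target at chr7:155297776-155310235, was at 26.4 CPM in DMSO, 2.76 in RAC1i and 5.78 in Combo, 9.57-fold and 4.58-fold lower. These factors were over all kept cells and differed between strata. Among cells under 15000 UMIs the INSIG1 ratios were 0.344 in RAC1i (interval 0.282 to 0.419) and 0.598 in Combo (interval 0.494 to 0.724). Among cells over 30000 UMIs they were 0.0760 and 0.182. Its level also differed with mitochondrial share, as described further on. INSIG2 was at 12.6, 8.69 and 10.1 CPM over all kept cells. It stayed within 1.5-fold of DMSO there, with ratios of 0.692 (interval 0.653 to 0.734) and 0.802 (interval 0.757 to 0.850). STARD4 (chr5:111496033-111512590), a cytosolic protein that carries cholesterol between membranes, was at 21.5, 1.48 and 2.26 CPM. Its level over all kept cells was 14.5-fold lower in RAC1i (ratio 0.0688, interval 0.0615 to 0.0768) and 9.52-fold lower in Combo. This was the lowest ratio of the 31 genes in both, from 4273 UMIs in DMSO to 347 and 480. At 5000 UMIs per cell, 10.3% of DMSO cells had a UMI of STARD4, 0.739% of RAC1i and 1.14% of Combo cells. Without thinning these shares were 37.8%, 3.19% and 5.21%. The cultures held a single cell line, so no cell type lacking these genes was available to set a background share.

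Over all kept cells the fatty acid enzymes were past 1.5-fold lower, 7 of 7 in each treated library, against 36.9% of all genes in RAC1i and 35.4% in Combo. Among cells with under 2% mitochondrial UMIs 6 of 7 were in RAC1i and 5 of 7 in Combo. Their median log2 ratios there were -0.96 and -0.73, against 0.08 and 0.12 for all genes. Among cells under 15000 UMIs 7 of 7 and 6 of 7 were, with medians of -1.13 and -1.05, against -0.08 for all genes in both. The share of all genes past 1.5-fold was not counted within strata. ACLY, which supplies acetyl-CoA from citrate, was the least lowered at 44.4 CPM in DMSO, 25.6 in RAC1i and 23.1 in Combo. Acetyl-CoA carboxylase ACACA, which makes malonyl-CoA, was at 25.5, 8.85 and 7.90 CPM. Fatty acid synthase FASN was at 228, 70.3 and 74.2 CPM, ratios of 0.309 and 0.325. ELOVL6, which extends palmitate, was at 52.7, 20.5 and 23.1 CPM.

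Over all kept cells the desaturases were the fatty acid enzymes with the lowest ratios in both treated libraries. SCD (chr10:100347233-100364826), which makes oleate from stearate, was at 402, 63.5 and 69.7 CPM, 6.33-fold lower in RAC1i (ratio 0.158, interval 0.155 to 0.161) and 5.77-fold lower in Combo. FADS1 and FADS2, which desaturate polyunsaturated fatty acids, were at 191, 40.5 and 47.2 CPM and at 86.4, 18.8 and 23.4 CPM. Their ratios of 0.213 and 0.217 in RAC1i had overlapping intervals. The genes overlap on opposite strands by 490 exon bases in GENCODE 44, and the counting used by the authors takes strand into account by default. On the same strand, FADS2 shares 49 exon bases with FEN1 and TM7SF2 shares 18 with VPS51. FDPS and HSD17B7 have pseudogene copies, so their counts are less certain.

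Summed over the list, the 18 mevalonate and sterol enzymes made up 1887 CPM in DMSO, 458 in RAC1i and 563 in Combo, or 49.9, 10.5 and 14.5 UMIs per kept cell. The 7 fatty acid enzymes made up 1029, 248 and 269 CPM, or 27.2, 5.71 and 6.94 UMIs per kept cell. Over all kept cells both sums had nearly the same ratio in RAC1i, 0.243 (interval 0.241 to 0.244) for the first and 0.241 (interval 0.239 to 0.243) for the second. They were apart in cells with under 2% mitochondrial UMIs, at 0.259 and 0.517, and in cells under 15000 UMIs, at 0.248 and 0.419. In Combo they were at 0.298 (interval 0.296 to 0.300) and 0.261 (interval 0.258 to 0.263) over all kept cells. Their order was the opposite in cells with under 2% mitochondrial UMIs, at 0.325 and 0.554, and in cells under 15000 UMIs, at 0.275 and 0.490.

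The comparison of Combo with RAC1i asks what EZH2i added to RAC1i. Here 23 of the 31 genes had at least 10 CPM in either library, and 0 of 23 were past 1.5-fold in either direction, a count near the share of all 7443 genes, 0.484% lower and 0.175% higher. Of the 23, 21 were above RAC1i in Combo, with a median log2 ratio of 0.25 against 0.01 for all genes. The intervals cover counting error only and are narrow at this depth: that of the ratio lay above 1 for 43% of the 7443 genes and below 1 for 39.2%, and for 21 and 1 of the 23. Counting all 31 genes, the interval of the ratio lay above 1 for 28, below 1 for ACLY and ACACA, and included 1 for SC5D. All 5 SREBP regulators and all 7 mevalonate enzymes were among the 28. This was over all kept cells. Between strata of mitochondrial share the direction was mixed for 21 of the 31, as described further on. The sum of the mevalonate and sterol enzymes was 1.23 times that of RAC1i (interval 1.22 to 1.24), and that of the fatty acid enzymes 1.08 times (interval 1.07 to 1.10).

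The 8 genes under 10 CPM in both treated libraries were MVK, MVD, NSDHL, HSD17B7, SREBF1, INSIG1, STARD4 and ACACA. Of these, 4 had ratios over 1.5 in Combo against RAC1i: INSIG1 at 2.09 (interval 1.90 to 2.30), MVK at 1.66 (interval 1.55 to 1.78), HSD17B7 at 1.65 (interval 1.47 to 1.86) and STARD4 at 1.53 (interval 1.33 to 1.76). The share of all genes under 10 CPM with such ratios was not counted, so this count has no background. INSIG1 rested on 649 UMIs in RAC1i and 1229 in Combo. ACLY, at 25.6 and 23.1 CPM, had a ratio of 0.900 (interval 0.867 to 0.935), and ACACA, at 8.85 and 7.90 CPM, had a ratio of 0.893 (interval 0.837 to 0.953). These enzymes carry the first steps from citrate to malonyl-CoA, and the remaining fatty acid enzymes had ratios of 1.05 (FASN) to 1.25 (FADS2).

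Summed over the sterol enzymes and over the fatty acid enzymes, the lower levels were seen across most cells rather than in a separate group of them. The regulators were not summed per cell. Cells were reduced to 5000 randomly drawn UMIs each, which left 6725 cells of DMSO, 9200 of RAC1i and 7354 of Combo, and 806, 1015 and 885 shallower cells were left out. The median DMSO cell then had 9 UMIs of the 18 mevalonate and sterol enzymes, with 4 at the 10th and 15 at the 90th percentile. The median was 2 UMIs in RAC1i and in Combo, with 5 at the 90th percentile in both. Only 0.5% of RAC1i and 1.22% of Combo cells reached the DMSO median, against 52.1% of DMSO cells. No UMI of these enzymes was found in 0.149% of DMSO, 12.5% of RAC1i and 9.03% of Combo cells.

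For the fatty acid enzymes the median was 4 UMIs per thinned cell in DMSO and 1 in each treated library. The DMSO median was reached by 59.5% of DMSO, 5.25% of RAC1i and 7.21% of Combo cells, and 6.42%, 33.4% and 30.7% of cells had no UMI of the 7 enzymes. For single genes, HMGCS1 had a UMI in 60.5% of thinned DMSO cells (interval 59.3 to 61.7%), 10.1% of RAC1i and 12.3% of Combo cells. SCD had a UMI in 71.9%, 26.2% and 27.9% of cells, and FDPS in 84.1%, 40.4% and 46.9%. These shares lay in the same order as the CPM of each gene.

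**Figure D3:**
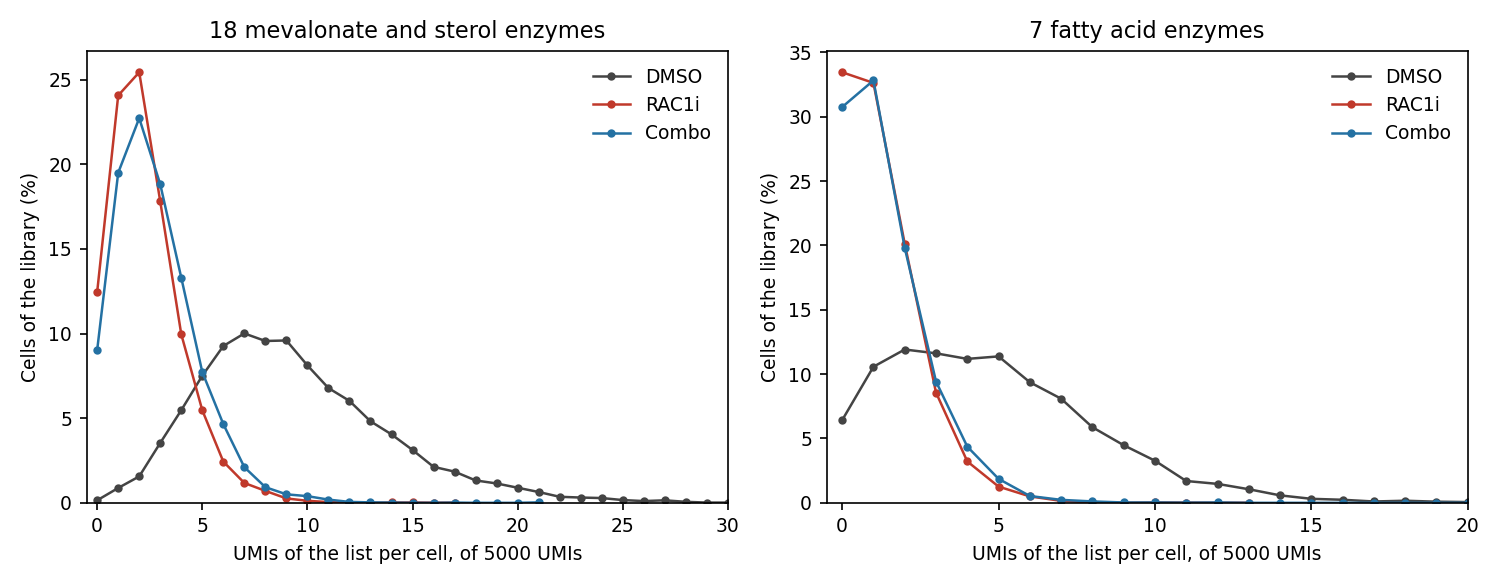
UMIs per cell of the 18 mevalonate and sterol enzymes (left) and the 7 fatty acid enzymes (right) in cells thinned to 5000 UMIs; the vertical axis is the percentage of the cells of a library. DMSO has a broad peak with a median of 9 UMIs on the left and 4 on the right, and both treated libraries have a narrow peak with medians of 2 and 1.

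The variance over the mean per thinned cell was highest in DMSO for 25 of the 31 genes. All 31 also had their highest level in DMSO, and the share of all genes with this order was not counted. The variance of SCD per thinned cell was 1.87 times its mean in DMSO and 1.25 and 1.24 times in RAC1i and Combo, where counting alone gives about the mean. The mean itself was 1.88, 0.335 and 0.358 UMIs, and this measure can grow with the mean. For HMGCS1 these values were 1.73, 1.18 and 1.25. The sums of the sterol and of the fatty acid enzymes had a Pearson r of 0.311 across 6725 DMSO cells, 0.143 across RAC1i and 0.186 across Combo cells. Within DMSO, SCD had the highest r with the rest of the fatty acid enzymes, 0.364, and ACACA the lowest, 0.0677. With the rest of the sterol enzymes HMGCS1 had the highest, 0.310, and MVK the lowest, 0.0129. In the same cells the fatty acid sum had r = 0.366 with mitochondrial UMIs and 0.278 with the log10 of UMIs before thinning. For the sterol sum these were 0.0977 and 0.0361. The cells of a library share a culture, counts were sparser in the treated libraries, and thinned cells still differed in the share of mitochondrial UMIs, so these values are descriptions only.

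Mitochondrial share moved with several of these genes inside the DMSO library. The 1607 DMSO cells with under 2% mitochondrial UMIs had a median of 6566 UMIs, and the 880 cells with 10 to 20% had 19932. SCD was at 134 CPM in the former and 527 in the latter, with 382 and 429 CPM in the strata between them (2 to 5% and 5 to 10%). SCAP went from 10.0 to 38.4 CPM, SREBF1 from 12.4 to 47.1 and FADS2 from 35.4 to 115. By contrast, ACAT2 went from 126 to 77.1 CPM, IDI1 from 116 to 71.1 and FDPS from 514 to 386. Most squalene and sterol enzymes were higher at 10 to 20% than under 2%. SQLE was 2.99-fold higher, SC5D 2.82-fold, CYP51A1 2.68-fold and DHCR7 2.65-fold. Of the squalene and sterol enzymes only FDFT1 was lower, with a ratio of 0.724. The interval of HSD17B7 included 1 (0.890 to 1.24). HMGCS1 was at 205 and 238 CPM. The fatty acid sum went from 456 to 1211 CPM over the strata of DMSO. The sum of the mevalonate and sterol enzymes, whose members went in both directions, went from 1676 to 1958.

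In the treated libraries most cells had under 2% mitochondrial UMIs, 59.5% in RAC1i and 62.4% in Combo, against 21.3% in DMSO. For SCD the intervals of the ratio between these outer strata included 1 there, at 65.2 CPM under 2% and 58.9 at 10 to 20% in RAC1i, and 67.7 and 77.5 in Combo. INSIG1 went from 2.35 to 17.5 CPM in RAC1i (7.48-fold, interval 4.78 to 11.2) and from 5.05 to 23.3 in Combo (4.60-fold, interval 3.15 to 6.52), although the upper stratum held 330 and 366 shallow cells and 25 and 33 UMIs of the gene. In that stratum the INSIG1 level in Combo (interval 16.0 to 32.7) overlapped that of DMSO (29.1 CPM, interval 26.7 to 31.7). The part of mitochondrial share in the differences between libraries was not tested; values within strata follow.

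**Figure D4:**
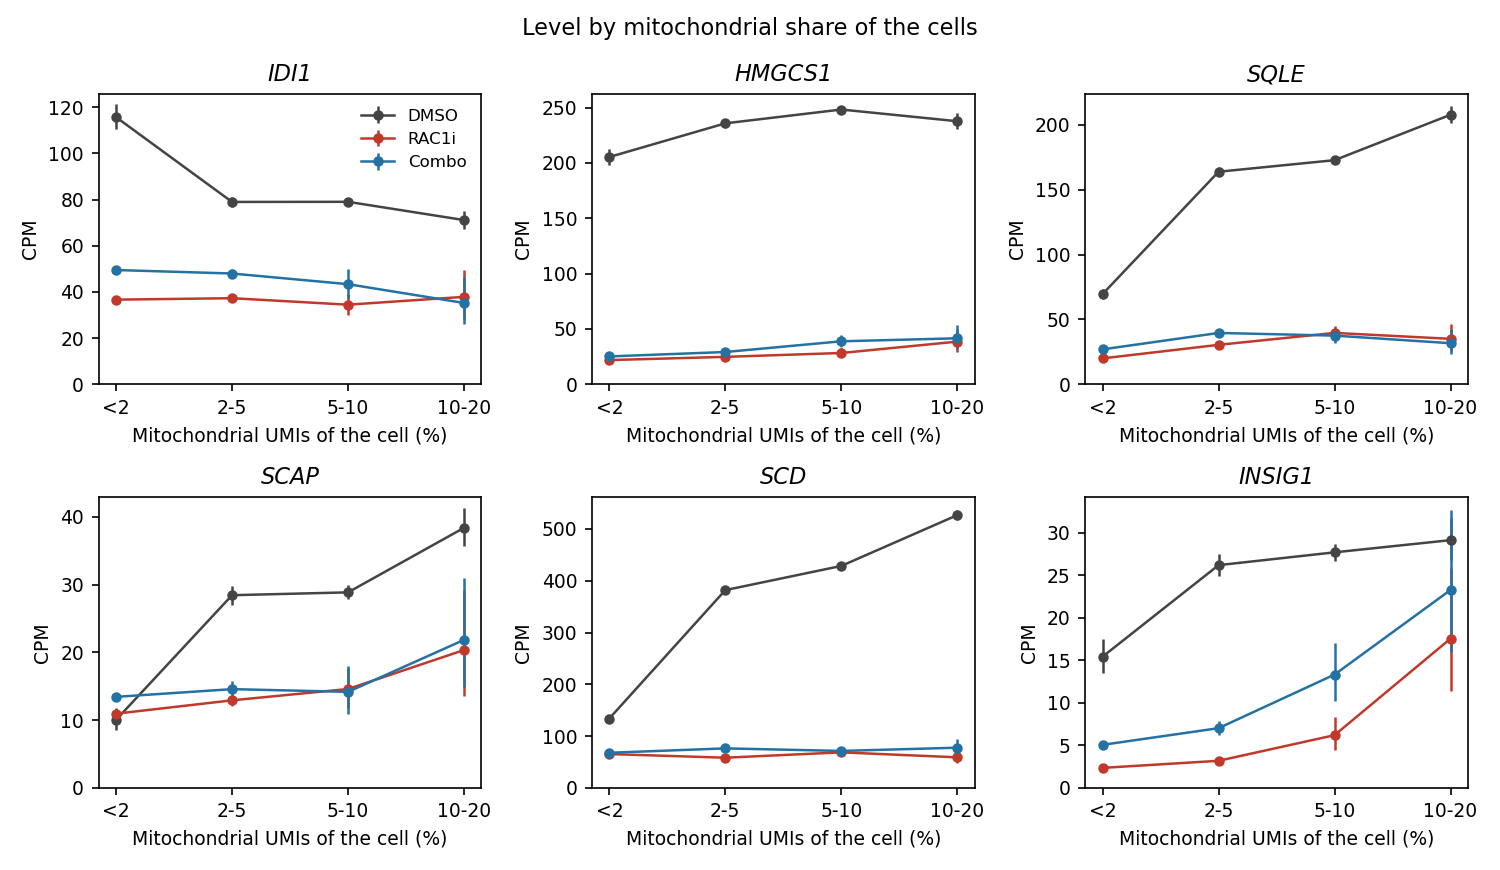
Level in CPM of 6 genes in cells grouped by their share of mitochondrial UMIs (under 2%, 2 to 5%, 5 to 10%, 10 to 20%), in DMSO (black), RAC1i (red) and Combo (blue), with 95% counting intervals. In DMSO, SCD goes from 134 to 527 CPM and IDI1 from 116 to 71.1; INSIG1 goes up with the share in both treated libraries, and under 2% SCAP is at 10.0 CPM in DMSO, 11.0 in RAC1i and 13.4 in Combo.

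Cells of like mitochondrial share were also compared, although the strata differed in depth: under 2% the median cell had 6566 UMIs in DMSO, 25411 in RAC1i and 30716 in Combo. In RAC1i 29 of the 31 genes were below DMSO in all 4 strata, SC5D and SCAP being the exceptions, and in Combo 27, with SREBF2 and INSIG2 as further exceptions. The share of all genes below DMSO in every stratum was not counted, by mitochondrial share or by depth. Among cells with under 2% mitochondrial UMIs the median log2 ratio was -1.51 in RAC1i and -1.17 in Combo, over the 30 genes with at least 10 CPM there. In this stratum the median of the fatty acid enzymes in RAC1i was -0.96, where it was -1.70 over all kept cells. The fatty acid sum was lower by a smaller factor, with a ratio of 0.517 in RAC1i and 0.554 in Combo, than the sterol sum, with ratios of 0.259 and 0.325. SCAP was not lower than in DMSO there, at 10.0 CPM in DMSO (interval 8.52 to 11.8), 11.0 in RAC1i and 13.4 in Combo, and only Combo lay outside the DMSO interval. SREBF2 was at 14.2 CPM in both DMSO and Combo and at 11.9 in RAC1i. SC5D was at 17.2, 32.9 and 33.4 CPM, a ratio of 1.91 and 1.94. Comparing cells of like depth (under 15000, 15000 to 30000 and over 30000 UMIs), 30 of the 31 were below DMSO in every stratum in both treated libraries. SC5D was again the exception, at 22.0, 27.7 and 24.1 CPM in cells under 15000 UMIs. The differences were smaller in these shallow cells for the regulators and the fatty acid enzymes. The median log2 ratio of the SREBP regulators was -0.60 in RAC1i and -0.26 in Combo there, where it was -1.36 and -1.09 over all kept cells. SREBF2 and SCAP both had a ratio of 0.926 in Combo, with intervals that included 1 (0.784 to 1.10 and 0.777 to 1.10). The fatty acid sum had a ratio of 0.419 in RAC1i and 0.490 in Combo, and the sterol sum 0.248 and 0.275.

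Higher levels in Combo than in RAC1i were not seen in every one of these strata. By depth, 23 of the 31 genes were higher in Combo in every stratum, and by mitochondrial share 9 of 31 (HMGCS1, MVK, HSD17B7, DHCR7, SREBF2, INSIG1, STARD4, FASN and SCD). Under 2% and at 2 to 5%, 29 and 28 of the 31 were above RAC1i, and at 5 to 10% and 10 to 20%, 16 and 14. The shares of all genes above RAC1i within strata, or in every stratum, were not counted. These last strata held only 766 and 330 cells of RAC1i and 633 and 366 of Combo. Their cells were shallow, with medians of 5600 and 3220.5 UMIs in RAC1i. In cells with under 2% mitochondrial UMIs the median log2 ratio of the genes with at least 10 CPM was 0.28, and in those with 10 to 20% it was -0.10.

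Genes next to the pathway, in lists written for this comparison, lay in both directions. The isoprenoid branch uses farnesyl diphosphate for prenylation, ubiquinone and dolichol. Of its 15 genes 12 passed the minimum of 10 CPM, and in RAC1i 1 was past 1.5-fold lower and 5 higher. The shares of all genes were 36.9% and 22.7%, and the median log2 ratio of the list was 0.44. Among the 5, PDSS1 and PDSS2 were at 9.22 and 9.05 CPM in DMSO and at 15.3 and 15.6 in RAC1i. They thus passed only through the treated library, where they were high. RABGGTB, a subunit of the enzyme that prenylates Rab proteins, was at 50.2 CPM in DMSO, 118 in RAC1i and 105 in Combo. RABGGTA, the other subunit, did not pass the minimum and went the other way, at 8.41, 2.38 and 2.39 CPM. DHDDS, at 9.56, 2.26 and 2.55 CPM, and FNTB, at 4.03, 6.95 and 7.66 CPM, did not pass either. ICMT, which methylates prenylated proteins, was at 92.2, 53.8 and 52.7 CPM. In Combo the counts were 1 lower and 4 higher, against 35.4% and 21.3% of all genes, with a median of 0.42.

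Of 9 genes for SREBP processing and INSIG turnover 7 passed, with 3 past 1.5-fold lower and 2 higher in RAC1i and 4 and 2 in Combo, where the shares of all genes were 36.9% and 22.7% in RAC1i and 35.4% and 21.3% in Combo. MBTPS1, the protease that makes the first cut in SREBPs, was at 48.5, 15.4 and 18.5 CPM; it was named after its values were seen. ERLIN2, an endoplasmic reticulum protein that takes part in degradation of membrane proteins, had the lowest ratio, at 12.8, 3.02 and 3.83 CPM. It passed the minimum only through DMSO, where it was high, as did ERLIN1. AUP1, of the same degradation machinery, had the highest, at 92.9, 215 and 218 CPM. Of 16 genes for supply, elongation and activation of fatty acids 15 passed, with 8 past 1.5-fold lower and 1 higher in RAC1i, and 6 and 0 in Combo, where the count of lower genes was near the share of all genes (35.4%). ACSL1, which activates long-chain fatty acids, was at 22.3, 4.92 and 5.53 CPM, and HACD2, a dehydratase of elongation, was at 58.8, 102 and 86.7 CPM. ACSL1, ACSS2 and ELOVL7 passed the minimum only through DMSO. The median log2 ratio of this list was -0.67 in RAC1i and -0.38 in Combo, against -1.70 and -1.69 for the 7 fatty acid enzymes. No gene of these lists was past 1.5-fold between Combo and RAC1i.

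**Figure D5:**
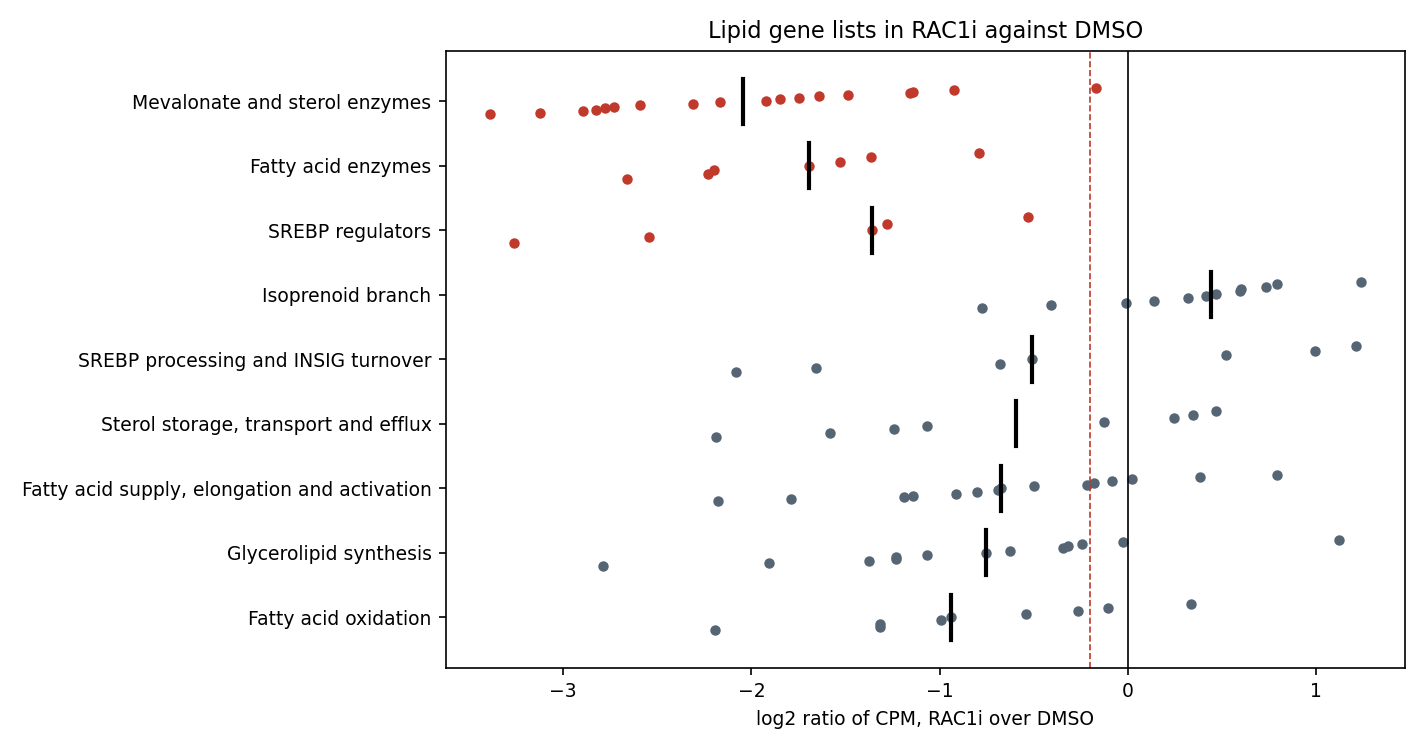
Log2 ratio of CPM in RAC1i over DMSO for single genes (points) of the sterol enzymes, the fatty acid enzymes and the SREBP regulators (red) and of 6 other lipid lists (grey, genes with at least 10 CPM); black bars are list medians and the dashed line is the median of all genes, -0.20. The isoprenoid branch has a median of 0.44 and lies mostly right of 0, and the red lists lie left of 0 with medians of -2.05, -1.70 and -1.36.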

How the data were processed

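Single-cell 3′ libraries of OVCAR3 cells (DMSO, RAC1i and Combo, 1 each) were used. The deposited files hold raw UMI counts for every gene in every barcode, which the authors made with Cell Ranger 4.0.0 (version per the submitters' processing notes) with default settings on GRCh38, without normalization or a later filter on cells. The study's limits were applied: cells needed more than 1000 genes, a mitochondrial share of 20% or less, and a complexity (log10 genes over log10 UMIs) above 0.8. UMIs were summed over kept cells and divided by their total (CPM), so a lower share can also come from higher levels of other genes. Ratios were called past 1.5-fold at 10 CPM or more in the higher library, so a gene could pass through the library where it was high. All 31 genes are named, and of each other list the genes with the highest and lowest ratio. The genes, the lists and the 1.5-fold rule were chosen with earlier results of these data known. Calculations used Python 3.11.15, numpy 2.4.6, scipy 1.17.1 and pandas 2.3.3, were tested on simulated data, and used edgeR 4.0.16 and DESeq2 1.42.0 for alternative scaling factors only. Gene positions and exon overlaps came from GENCODE 44 (GRCh38). Doublets were not removed. Other alternatives were other limits on cells, the mean over cells, thinning and other minimum levels; a 2-fold limit, centring on the median of all genes and a minimum in the treated library were added after seeing the data. Some genes of these pathways are not reported here.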

Additional observations from a re-analysis of the deposited data

How the results depend on the processing

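No paired analysis was possible because each condition had 1 library, and for the same reason no replicate could be left out. Over the settings tried, 108 values of the counts and list medians were the same and 5 moved. Of the values of single genes, which include shares of cells with a UMI, and of summed levels, 517 were the same, 881 moved and 3 reversed. The shares were compared between cells thinned to 2500 and to 5000 UMIs, and a share falls with depth by design. Values counted as the same could still differ, so these counts do not measure stability. The fatty acid median in RAC1i, not among the 5, lay between -2.20 and -1.47 outside the strata of cells. The median of the SREBP regulators in Combo lay between -1.16 and -0.85 outside the strata. It was -0.26 in cells under 15000 UMIs. With a minimum of 50 CPM only 16 genes were left, all past 1.5-fold lower in RAC1i and in Combo, against 28.5% and 27.4% of all genes at that minimum, which leaves out SC5D, INSIG2 and MVK. With no minimum CPM, 4 genes were past 1.5-fold in Combo against RAC1i (MVK, HSD17B7, INSIG1 and STARD4). The share of all genes was not counted without a minimum. The median log2 ratio of the SREBP regulators in Combo against RAC1i was 0.24, and it was 0.29 as the mean over cells of CPM and 0.34 in cells thinned to 5000 UMIs, where 2 genes passed. Only values past 1.5-fold were counted as reversed. In cells with under 2% mitochondrial UMIs 2 genes in RAC1i and 4 in Combo were above DMSO. Of these the log2 ratio reversed from past 1.5-fold for SCAP, to 0.12 in RAC1i and 0.42 in Combo, and for SREBF2 in Combo, to 0.0017014; SC5D and, in Combo, INSIG2 were within 1.5-fold over all kept cells, and SC5D was the highest there, going from ratios of 0.889 and 0.884 to 1.91 and 1.94. The cause was not tested. Over the settings other than the strata of cells the median of the mevalonate and sterol enzymes lay between -2.31 and -1.93 in RAC1i. Depth limits the strata: treated cells with over 5% mitochondrial UMIs numbered 330 to 766 per stratum, and the DMSO cells under 2% had a median of 6566 UMIs.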

Other observations

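Further lipid genes were lower more often than higher, as were all genes, of which 36.9% were past 1.5-fold lower and 22.7% higher in RAC1i, and 35.4% and 21.3% in Combo. Of 14 genes for storage, transport and efflux of sterols 8 passed the minimum of 10 CPM, with 4 past 1.5-fold lower and 0 higher in both treated libraries against DMSO. SOAT1, which esterifies cholesterol for storage, was at 14.2 CPM in DMSO, 3.12 in RAC1i and 3.76 in Combo. SOAT1, and NR1H2 in the comparison of RAC1i, passed the minimum only through DMSO, where they were high. VLDLR, a lipoprotein receptor, had the highest ratio in RAC1i, at 10.9, 15.0 and 13.0 CPM, and OSBP, an oxysterol-binding protein, the highest in Combo, at 45.7, 58.0 and 58.4 CPM. ABCA1 and ABCG1, cholesterol exporters and known targets of oxysterol-sensing LXR receptors, were picked after their values were seen and lay under the minimum. ABCA1 was at 4.59, 0.596 and 0.414 CPM, and ABCG1 at 3.63, 0.311 and 0.211 CPM.

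Of 14 genes of glycerolipid synthesis 13 passed, with 8 past 1.5-fold lower and 1 higher in RAC1i and 7 and 1 in Combo. PCYT2, of phosphatidylethanolamine synthesis, had the lowest ratio, at 37.4, 5.41 and 6.46 CPM. PCYT2, DGAT1 and CDS2 passed the minimum only through DMSO, where they were high, and are among the lower genes. CHKA, a choline kinase, had the highest, at 18.02, 39.2 and 46.3 CPM. Of 10 genes of fatty acid oxidation 9 passed, with 5 past 1.5-fold lower and 0 higher in both treated libraries. CPT2, the inner mitochondrial carnitine palmitoyltransferase, was at 24.0, 5.24 and 5.87 CPM and passed only through DMSO. ETFA, an electron acceptor of acyl-CoA dehydrogenases, was at 28.9, 36.4 and 38.4 CPM. No gene of these lists was past 1.5-fold between Combo and RAC1i. The median log2 ratios of the storage, glycerolipid and oxidation lists were -0.60, -0.75 and -0.94 in RAC1i, against -0.20 for all genes.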
